A study of Mus musculus with 204 samples.

Results

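Messenger RNA of soleus muscle was compared with that of the red part of the gastrocnemius in lean male C57BL/6J mice, an inbred laboratory strain. Both groups ate standard chow with 13.1% fat, and the labels name no transgene or targeted mutation in either. The comparison rests on 10 of the 204 libraries of a mouse tissue atlas: 5 titled as lean soleus and 5 titled as lean gastrocnemius, whose source was given as the red muscle. It covers the genes that averaged at least 10 CPM (read counts scaled to the library total) over these 10 libraries, which were 1675 of the 13153 genes with complete values. The level at that limit was 10.03 CPM for Sys1, 10.04 for Nhlrc3 and 10.05 for Fam129b just inside, and 9.95 for Them4, 9.94 for Rcn1 and 9.93 for 5830417I10Rik just outside. Diet-induced obese (DIO) mice of the same strain and sex, fed 60% fat for 10 weeks, gave 5 soleus and 5 red gastrocnemius libraries in which the same difference was measured again. The extensor digitorum longus (EDL) of lean mice gave 4 more libraries from a fast muscle. The labels were inconsistent on age, since mice were said to be obtained at 6 to 12 weeks and to start the fat diet at 4 weeks. They did not tie libraries to mice, so the muscles may share animals and p-values measure only the spread between libraries.

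Skeletal muscle fibres differ in the myosin, troponin and tropomyosin isoforms they build, in how they store and release calcium, and in whether they burn fat or glycogen. Soleus is a postural muscle rich in slow fibres, while the red gastrocnemius is an oxidative region of a mostly fast muscle and the EDL is a fast, glycolytic muscle. Slow fibres are fatigue resistant and carry isoforms that the heart also uses. Fast fibres split ATP faster and draw more on glycogen.

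The values used here covered chromosomes 1, 2, X and 3 and the first 40.3 Mb of chromosome 4, so genes elsewhere, among them most myosin heavy chains, were not analysed here. Lean soleus libraries held 24.51 to 29.06 and lean red gastrocnemius libraries 20.03 to 26.41 M reads. Each of the 10 lean libraries had its highest rank correlation over genes with another library of its own muscle. In bulk tissue, fewer cells of a type and less RNA per cell cannot be told apart. Soleus libraries lean 1 and lean 2 stood apart from lean 3, 4 and 5, and so did soleus DIO 1 and 2 from DIO 3, 4 and 5. In both diets 27 of the 1675 genes were lower in the first 2 soleus libraries than in each of the other 3, by a mean log2 difference of at least 1, and 0 genes were higher by that rule. Ttn, which encodes the giant sarcomere spring titin, was one of them. Without soleus lean 1 and 2, 997 genes passed, 727 higher and 270 lower. Myh7b, Plcd4, Prkab2, Tnnc2, Atp1b1, Dmd, Pfkfb1, Pfkfb2, Etfdh, Pdha1 and Acss2 overlap another protein-coding gene, and whether counting used the strand is not given in the sources used here, so their reads may include the neighbour's.

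A broad difference separated the muscles. Of the 1675 genes 892 (53.3%) passed an adjusted p of 0.05 in limma on log2(CPM + 1), the source of every adjusted p given here, with 626 (37.4%) higher and 266 (15.9%) lower in soleus. Rescaling the libraries by median-of-ratios factors moved that split to 410 higher and 393 lower of 803 calls. Differences of at least 1 on the log2 scale that also passed were fewer: 82 genes (4.9%), 44 higher (2.63%) and 38 lower (2.27%) in soleus. Every soleus library lay on 1 side of every red gastrocnemius library for 672 genes (40.1%), above for 462 (27.6%) and below for 210 (12.5%). The median log2 difference over all tested genes was 0.09. Among genes that passed, separated the libraries in that way and reached 50 CPM in the higher muscle, the 12 largest differences in each direction named 24 genes that are described below by role.

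**Figure D1:**
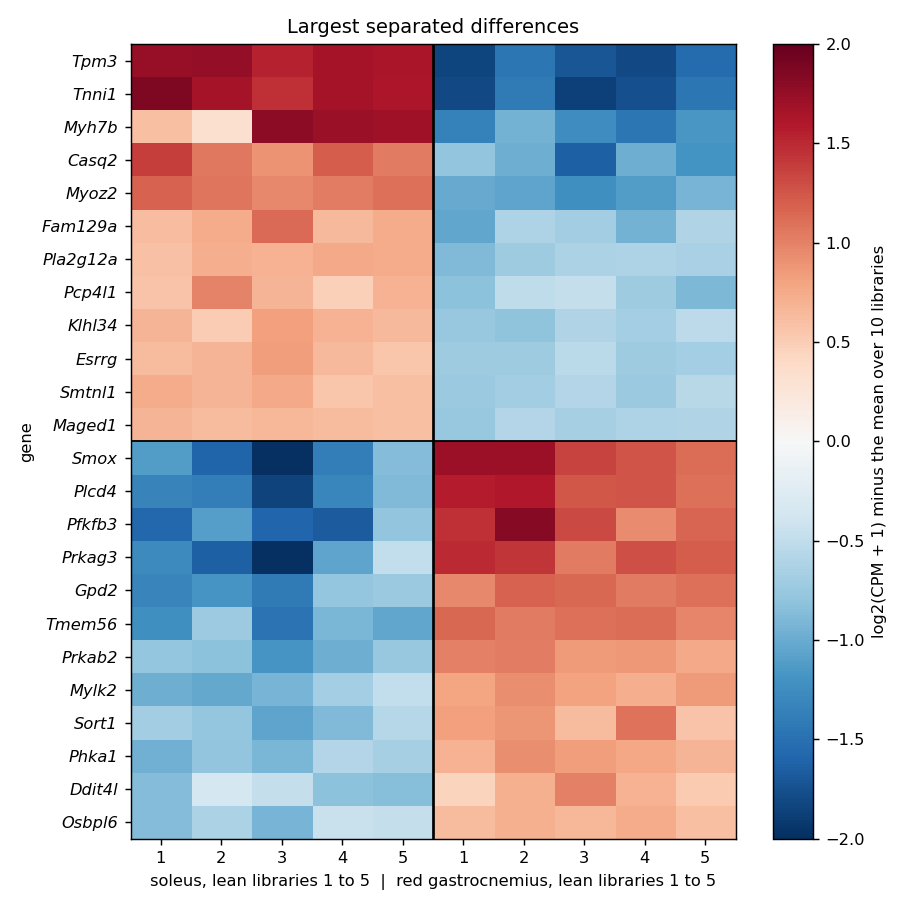
Colour gives log2(CPM + 1) minus the mean over the 10 lean libraries for the 24 genes with the largest separated differences, with soleus libraries 1 to 5 left and red gastrocnemius libraries 1 to 5 right. The upper 12 genes were higher and the lower 12 lower in every soleus library than in any red gastrocnemius library; Myh7b was paler in soleus libraries 1 and 2.

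Genes of the slow contractile apparatus were higher in soleus, and Tpm3 and Tnni1 had the largest log2 differences of the 1675 genes. Of 11 listed genes 5 lay in the covered chromosomes, and all 5 of these were tested and higher in soleus. Their median log2 difference was 2.46 against 0.09 over all tested genes, of which 37.4% were higher. This list and those below were chosen with earlier results of these data known, so their counts and medians are descriptions, not tests. Tpm3 (chr3:90072649-90100902) encodes the slow-muscle tropomyosin, which covers the myosin sites on the actin filament. It had 3997, 4024, 3487, 3798 and 3702 CPM in the lean soleus libraries, against 335, 438, 364, 342 and 409.7 CPM in the lean red gastrocnemius libraries. The lowest soleus library was several times above the highest red gastrocnemius library, and the log2 difference was 3.33 ± 0.08 (SE, adjusted p = 3.5e-10). The reference annotation lists the copies Tpm3-rs2 and Tpm3-rs7, with which reads could be shared. Tnni1 (chr1:135779434-135810989) encodes slow troponin I, the inhibitory subunit of the calcium switch. It had 1839, 1596, 1388, 1600.3 and 1545 CPM in soleus and 143, 187, 137, 147 and 185 CPM in red gastrocnemius, and the groups did not overlap. Its log2 difference was 3.32 ± 0.10 (adjusted p = 2.7e-09), a 9.97-fold ratio of the mean CPM.

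Myoz2, a Z-disc protein of slow fibres that binds calcineurin, averaged 1017 ± 57.4 CPM in soleus and 231 ± 17.3 CPM in red gastrocnemius (SD, n = 5 each; log2 difference 2.14 ± 0.06, adjusted p = 9.7e-10). Myh7b, a slow-type myosin heavy chain gene, had 50.8, 41.4, 117, 112 and 109 CPM in soleus, against 12.3, 16.6, 13.4, 11.5 and 14.2 CPM in red gastrocnemius. Soleus libraries 1 and 2 were far below the other soleus libraries, yet above every red gastrocnemius library. The log2 difference of Myh7b was 2.46 with all libraries and 2.97 without soleus 1 and 2 (adjusted p = 3.4e-05 and 9.1e-08). Smpx, a small stretch-responsive muscle protein, differed less, with 452 to 599 CPM in soleus, 313 to 333 CPM in red gastrocnemius and a log2 difference of 0.66 ± 0.06 (adjusted p = 1.0e-05).

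Fast contractile genes differed the other way, and by less. All 3 tested members were lower in soleus, with a median log2 difference of -1.20, beside 15.9% lower of all tested genes. Myl1 (chr1:66924295-66945404), the essential light chain of fast myosin, had 2902, 2820.1, 2715, 2844 and 2804 CPM in soleus, against 7031, 6327, 6675, 6244 and 6178 CPM in red gastrocnemius. The groups lay far apart (log2 difference -1.20 ± 0.04, adjusted p = 7.4e-09), but soleus still held 43.4% of the red gastrocnemius level. Tnnc2 (chr2:164777161-164779967), fast troponin C, had 3748 to 4576 CPM in soleus and 6847 to 7479 CPM in red gastrocnemius, again without overlap (log2 difference -0.74 ± 0.06, adjusted p = 1.3e-06). Mylk2, the skeletal muscle kinase that phosphorylates the regulatory light chain, averaged 244 ± 39.6 CPM in soleus and 758 ± 39.7 CPM in red gastrocnemius (SD, n = 5 each; log2 difference -1.64 ± 0.09, adjusted p = 2.2e-07). Mybph, a myosin-binding protein below the limit of 10 CPM, had 0.792 to 7.51 CPM in soleus and 8.25 to 21.4 CPM in red gastrocnemius. Unlike Myl1 and Tnnc2, its levels were low in the EDL libraries as well, at 0.828 to 3.63 CPM, and its DIO levels were 0.865 to 11.9 CPM in soleus and 31.9 to 74.2 CPM in red gastrocnemius.

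**Figure D2:**
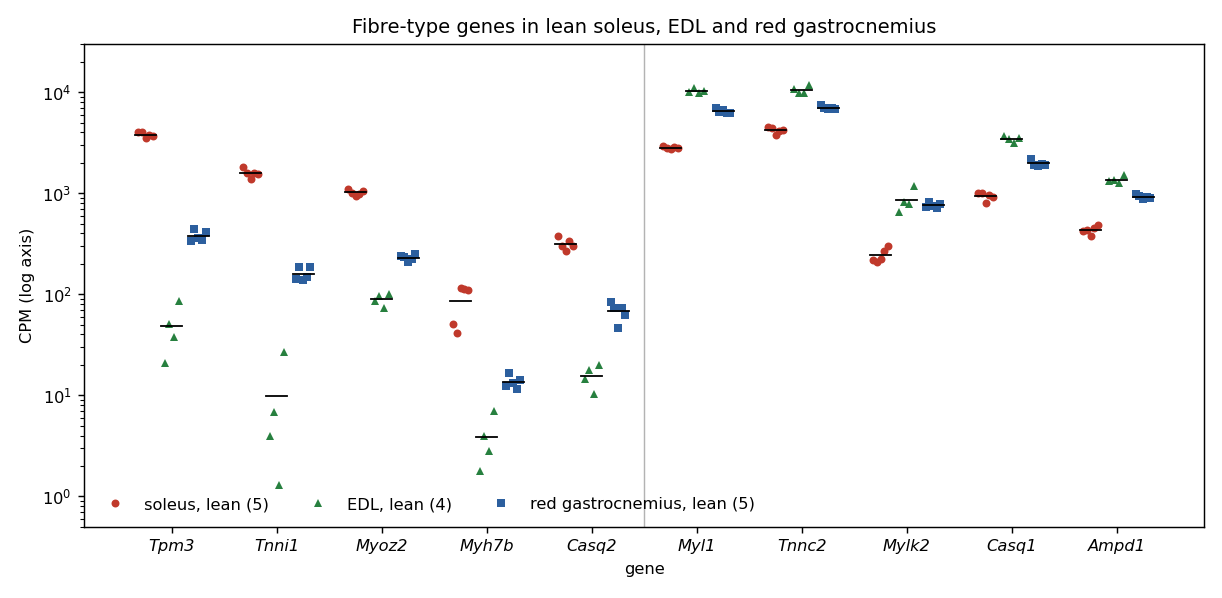
CPM of 10 genes on a log axis in every lean library of soleus (circles), EDL (triangles) and red gastrocnemius (squares), with black lines at the group means. Genes left of the line (Tpm3, Tnni1, Myoz2, Myh7b, Casq2) were highest in soleus and lowest in EDL, while Myl1, Tnnc2, Casq1 and Ampd1 were highest in EDL and lowest in soleus.

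The proximal promoters of genes that moved in opposite directions are shown so that their sequences can be set side by side. RefSeq promoter windows on GRCm38.p6, 250 bases before to 50 after a start site and 5′ to 3′ along the gene, were matched by symbol for 1393 of the 1675 tested genes. Capitals mark matches, on either strand, to 5 motifs: the E-box CAGCTG that myogenic factors bind, the MCAT element CATTCC, the estrogen-related receptor half-site AAGGTCA, the MEF2 site and the CArG box of serum response factor. None of the motifs printed overlapped another.
Tnni1 (chr1:135799171-135799470, plus strand, upstream of the 2 windows listed): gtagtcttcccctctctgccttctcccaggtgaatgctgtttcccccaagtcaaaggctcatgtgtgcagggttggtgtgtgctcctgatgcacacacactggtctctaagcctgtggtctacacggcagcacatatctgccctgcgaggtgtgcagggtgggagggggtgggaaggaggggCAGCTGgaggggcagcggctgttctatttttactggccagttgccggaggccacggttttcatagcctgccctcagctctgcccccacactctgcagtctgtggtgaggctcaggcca
Tpm3 (chr3:90072401-90072700, plus strand, upstream of the 2 windows listed): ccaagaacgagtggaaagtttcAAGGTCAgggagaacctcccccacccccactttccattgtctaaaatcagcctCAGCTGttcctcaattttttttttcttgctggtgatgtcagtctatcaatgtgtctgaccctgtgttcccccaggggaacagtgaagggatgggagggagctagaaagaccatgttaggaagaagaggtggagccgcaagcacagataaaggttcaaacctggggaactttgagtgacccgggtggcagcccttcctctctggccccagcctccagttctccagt
Casq2 (chr3:102086165-102086464, plus strand): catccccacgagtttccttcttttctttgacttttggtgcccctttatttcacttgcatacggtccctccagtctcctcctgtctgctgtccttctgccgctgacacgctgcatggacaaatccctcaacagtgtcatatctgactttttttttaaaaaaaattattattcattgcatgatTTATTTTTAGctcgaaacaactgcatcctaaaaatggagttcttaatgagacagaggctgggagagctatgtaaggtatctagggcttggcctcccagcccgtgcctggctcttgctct
Myl1 (chr1:66945007-66945306, minus strand): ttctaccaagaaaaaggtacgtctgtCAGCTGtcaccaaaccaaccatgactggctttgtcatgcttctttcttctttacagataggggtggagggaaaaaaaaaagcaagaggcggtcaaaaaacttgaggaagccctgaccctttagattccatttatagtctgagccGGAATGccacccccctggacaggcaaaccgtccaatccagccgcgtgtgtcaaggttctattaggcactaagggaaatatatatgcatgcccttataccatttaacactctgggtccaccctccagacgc

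An E-box stood in the printed windows of Tnni1 and Tpm3 as well as in that of Myl1. The other Tpm3 window and the window of the fast gene Tnnc2, which are not printed, held no match to any of the motifs. The capitals GGAATG in the Myl1 window are the MCAT element on the other strand. The E-box was present in 16.3% of all 32851 promoter windows, the MCAT element in 14.7%, the receptor half-site in 4.72%, the MEF2 site in 3.19% and the CArG box in 1.63%. Among the 57 windows of the 38 matched genes that were higher in soleus by at least 1 on the log2 scale, the MEF2 site stood in 7 (12.3%). Of the 39 windows of the 29 matched genes that were lower by that much, 0 held it. The E-box stood in 12 (21.1%) of the windows of the higher genes and in 14 (35.9%) of those of the lower genes. The MCAT element stood in 14% of the windows of the higher and 5.13% of those of the lower genes, the receptor half-site in 3.51% and 12.8%, and the CArG box in 5.26% and 2.56%. Over the 1798 windows of all matched tested genes the shares were 15% for the E-box, 11.4% for MCAT, 3.67% for the half-site, 2.67% for MEF2 and 1.5% for the CArG box. Windows of 1 gene can overlap, as those of Tnni1 do and those of Tpm3 do not. These shares describe letters in the windows, not binding.

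Within the calcium and excitation list 4 of 11 tested genes were higher and 4 lower in soleus, and the median of 0.02 lay near that of all genes. Of all tested genes 37.4% were higher and 15.9% lower. The calsequestrins, which buffer calcium in the sarcoplasmic reticulum, moved in opposite directions. Casq2 (chr3:102086415-102146514), the isoform of heart and slow fibres, had 379, 302, 269.7, 337 and 299.7 CPM in soleus, against 83.2, 72.8, 46.0, 72.9 and 62.9 CPM in red gastrocnemius. Every soleus library was above every red gastrocnemius library, and the log2 difference was 2.23 ± 0.15 (adjusted p = 4.9e-07). Casq1 (chr1:172209894-172219868), the fast-fibre isoform, had 1015, 1000.3, 795, 967 and 927 CPM in soleus, against 2204, 1898, 1873, 1966 and 1924 CPM in red gastrocnemius. Its groups did not overlap either (log2 difference -1.07 ± 0.07, adjusted p = 5.0e-07). The ratio of Casq2 to Casq1 CPM was 0.302 to 0.373 in soleus and 0.0246 to 0.0384 in red gastrocnemius. Since gene length cancels within a gene, the ratio can be set against itself across muscles, but it does not give the ratio of molecules.

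Atp1b1, a beta subunit of the sodium pump, which restores the membrane gradient after each action potential, averaged 687 ± 35.9 CPM in soleus and 354 ± 26.5 CPM in red gastrocnemius (SD, n = 5 each; log2 difference 0.96 ± 0.06, adjusted p = 2.6e-07). The other lower members of the list included Jph2, which ties the surface membrane to the calcium store. Jph2 had 314 to 376 CPM in soleus and 596 to 625 CPM in red gastrocnemius (log2 difference -0.80 ± 0.05, adjusted p = 2.2e-07). The voltage sensor gene Cacna1s differed by -0.31 ± 0.03 (adjusted p = 2.0e-05) and the triad membrane protein gene Sypl2 by -0.40 ± 0.10 on that scale (adjusted p = 0.0069), the groups overlapping for Sypl2.

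Filament, scaffold and membrane genes included 9 higher and 2 lower of 20 tested, with a median of 0.17. These shares are near those of all tested genes, 37.4% higher and 15.9% lower. Without soleus lean 1 and 2 the counts were 12 higher and 2 lower, and after rescaling 9 and 4. Fhl1, a LIM-domain protein of the sarcomere, had 5919, 5141, 5384, 5092 and 4445 CPM in soleus, against 2326, 1987, 2109, 2281 and 2368 CPM in red gastrocnemius. The soleus libraries were all above (log2 difference 1.23 ± 0.08, adjusted p = 3.1e-07). Klhl41, a kelch protein needed for sarcomere upkeep, averaged 1060.3 ± 94.0 CPM in soleus and 647 ± 30.6 CPM in red gastrocnemius (SD, n = 5 each; log2 difference 0.71 ± 0.06, adjusted p = 3.2e-06). The log2 difference of the lamin gene Lmna was 0.88 ± 0.09, that of the Z-disc adaptor Pdlim5 0.53 ± 0.06 and that of desmin, the intermediate filament Des, 0.39 ± 0.05 (adjusted p = 1.0e-05, 4.4e-05 and 1.4e-04). Dystrophin, encoded by Dmd, was higher in soleus, and its first 2 soleus libraries were the highest. The log2 difference of Dmd was 0.63 with them and 0.40 without them (adjusted p = 0.0046 and 0.011).

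Titin showed the division of the soleus libraries. Ttn (chr2:76703980-76982547) had 6694, 6918, 15818, 16125 and 15190 CPM in soleus, against 13355, 14020, 13230, 15069 and 14704 CPM in red gastrocnemius. Soleus libraries 1 and 2 were below every red gastrocnemius library, and soleus libraries 3, 4 and 5 were above every one. With all libraries the log2 difference was -0.32 ± 0.26 and did not pass (adjusted p = 0.32), and without soleus 1 and 2 it was 0.16 and passed (adjusted p = 0.025). Neb, which encodes the thin-filament ruler nebulin, had 5643 to 6548 CPM in soleus and 6387 to 7439 CPM in red gastrocnemius. It was lower in soleus by the test with all libraries (log2 difference -0.14 ± 0.05, adjusted p = 0.042), but not without soleus 1 and 2 (-0.09, adjusted p = 0.13). Igfn1, a Z-disc protein gene, had 7.51, 7.36, 13.2, 11.1 and 15.5 CPM in soleus, against 16.2, 66.6, 72.2, 18.3 and 69.6 CPM in red gastrocnemius. The red gastrocnemius libraries were uneven, with 2 close to the soleus values and 3 far above them (log2 difference -1.83 ± 0.45, adjusted p = 0.0055).

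**Figure D3:**
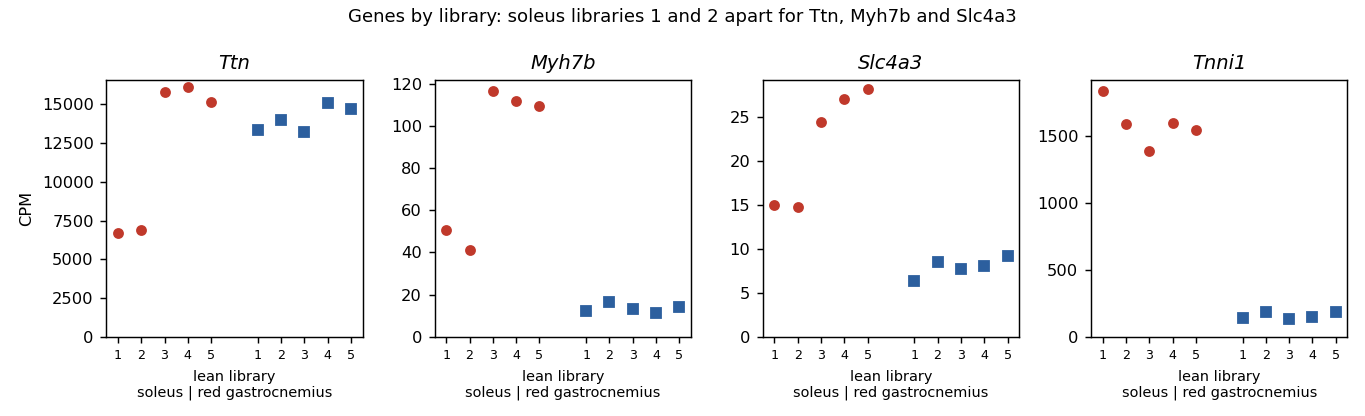
CPM of Ttn, Myh7b, Slc4a3 and Tnni1 in the 5 lean soleus libraries (red circles, left in each panel) and the 5 lean red gastrocnemius libraries (blue squares, right), numbered 1 to 5. Soleus libraries 1 and 2 were low for the first 3 genes and not for Tnni1.

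Most tested genes of the glycogen and glycolysis list, which mixes enzymes with regulators, had less mRNA in soleus. Of 19 listed genes 14 lay in the covered chromosomes and 12 were tested, of which 8 were lower and 3 higher. Of all tested genes 15.9% were lower and 37.4% higher. The median log2 difference of the list was -0.91 against 0.09 over all tested genes. Pfkfb3 makes fructose 2,6-bisphosphate, the activator of phosphofructokinase. It had 56.1, 77.8, 55.6, 52.3 and 97.5 CPM in soleus, against 464, 597, 421, 326 and 379 CPM in red gastrocnemius. Every soleus library was below every red gastrocnemius library, although both groups varied (log2 difference -2.68 ± 0.20, adjusted p = 1.1e-06). Subunits of the energy sensor AMP-activated protein kinase that are typical of fast muscle showed a like difference. Prkag3, its gamma-3 subunit, had 19.9, 15.4, 11.6, 23.6 and 35.0 CPM in soleus, against 142, 136, 104, 124 and 116 CPM in red gastrocnemius. Prkab2, its beta-2 subunit, had 107 to 143 CPM in soleus and 412 to 494 CPM in red gastrocnemius. Neither gene's groups overlapped, and the log2 differences were -2.59 ± 0.24 for Prkag3 (adjusted p = 5.7e-06) and -1.81 ± 0.08 for Prkab2 (adjusted p = 5.1e-08).

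Gpd2, the mitochondrial enzyme of the glycerol phosphate shuttle that takes up electrons from glycolysis, averaged 38.4 ± 8.45 CPM in soleus and 173 ± 10.7 CPM in red gastrocnemius (SD, n = 5 each; log2 difference -2.17 ± 0.13, adjusted p = 2.2e-07). Phka1, the muscle regulatory subunit of phosphorylase kinase, averaged 268 ± 30.4 CPM in soleus and 792 ± 56.0 CPM in red gastrocnemius (log2 difference -1.56 ± 0.08, adjusted p = 8.0e-08). The glycolytic enzyme gene Pgk1 was lower with a log2 difference of -0.86 ± 0.06, as was Pfkfb1 with -0.77 ± 0.10 (adjusted p = 5.7e-07 and 7.1e-05). Pgk1 has annotated copies with which reads could be shared. Members that rose in soleus were Pdk1, which holds back pyruvate oxidation, Pygb, the brain isoform of glycogen phosphorylase, and Gyg, the primer of glycogen synthesis. Pdk1 had 203 to 234 CPM in soleus and 95.6 to 107 CPM in red gastrocnemius (log2 difference 1.04 ± 0.05, adjusted p = 5.6e-08). The log2 differences of Pygb and Gyg were 1.02 ± 0.09 and 0.43 ± 0.04 (adjusted p = 3.3e-06 and 1.6e-05). Pfkfb2 did not pass (0.17, adjusted p = 0.76), and without soleus 1 and 2 it was 0.87 and passed (adjusted p = 0.011).

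**Figure D4:**
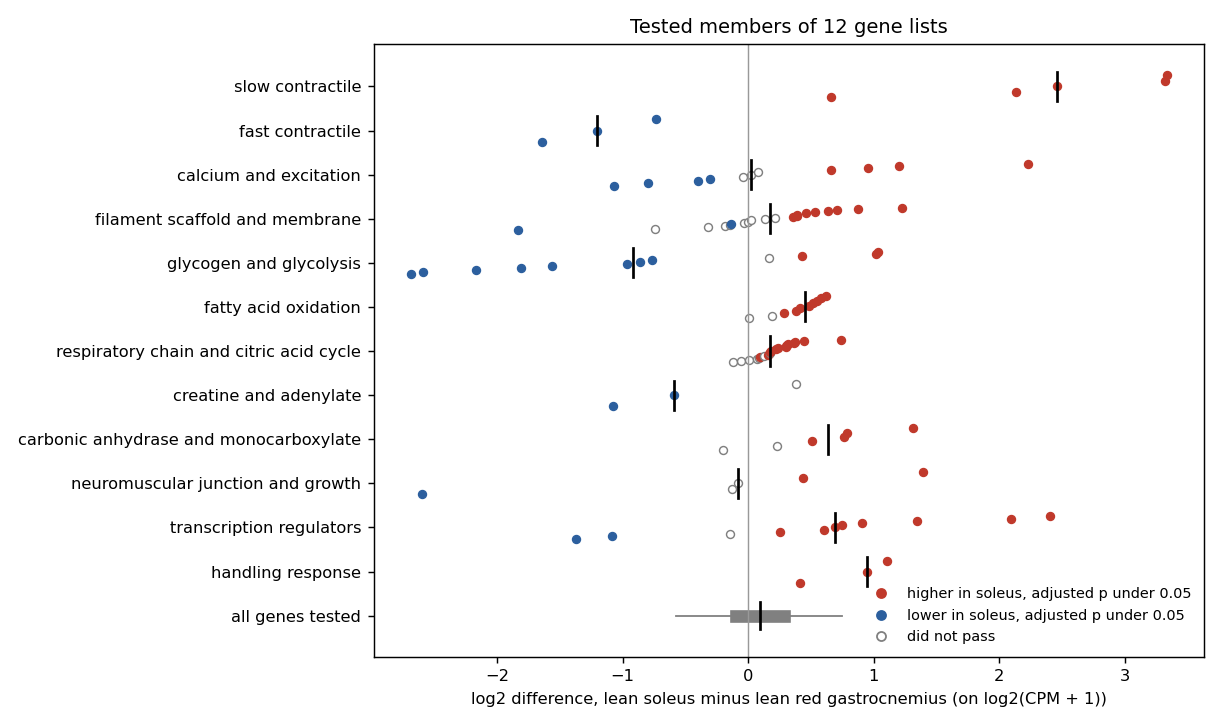
Each point is a tested member of a gene list, placed by its log2 difference between lean soleus and lean red gastrocnemius (red, higher; blue, lower; open, did not pass), with black lines at list medians. Ccn1, listed as Cyr61, is not plotted. The lowest row shows all 1675 tested genes, with a thick bar from the 25th to the 75th and a thin line from the 5th to the 95th percentile; every slow contractile gene lay above 0 and every fast contractile gene below.

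Most tested genes of the fatty acid oxidation list, which also holds transporters and a gene of valine breakdown, were modestly higher in soleus. Of 10 tested members 8 were higher and 0 lower, with a median of 0.45, and the same 8 counted as higher after rescaling. Of all tested genes 37.4% were higher and 15.9% lower. Acadl, the long-chain acyl-CoA dehydrogenase, had 703, 698, 611, 615 and 621 CPM in soleus, against 432, 416, 416, 438 and 405 CPM in red gastrocnemius. The groups did not overlap (log2 difference 0.62 ± 0.05, adjusted p = 2.0e-06). Etfdh, which passes electrons from these dehydrogenases to ubiquinone, averaged 375 ± 10.7 CPM in soleus and 251 ± 14.6 CPM in red gastrocnemius (SD, n = 5 each; log2 difference 0.58 ± 0.04, adjusted p = 1.2e-06). The medium-chain dehydrogenase gene Acadm differed by 0.55 ± 0.07, Hadh by 0.52 ± 0.04 and Decr1, needed for unsaturated fatty acids, by 0.49 ± 0.07 on the log2 scale (adjusted p = 4.5e-05, 1.5e-06 and 1.7e-04). The peroxisomal transporter Abcd3, Hibch of valine breakdown and the fatty acid transporter Slc27a4 were higher by 0.42, 0.38 and 0.29 (adjusted p = 2.0e-04, 3.2e-04 and 0.0086).

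The respiratory chain and citric acid cycle list differed less, and its count depended on scale. Of 22 tested members 15 were higher and 0 lower in soleus, with a median of 0.18, beside 37.4% higher and 15.9% lower of all tested genes. After rescaling 8 were higher and 2 lower, beside 410 higher and 393 lower of all 1675 tested genes. Without soleus 1 and 2 the counts were 13 and 1. Ndufb3, a subunit of complex I, stood out with 149 to 167 CPM in soleus and 91.2 to 98.6 CPM in red gastrocnemius (log2 difference 0.74 ± 0.04, adjusted p = 1.8e-07). Other members of complexes I to V and the gene of pyruvate dehydrogenase that rose under both scales were smaller. The log2 difference was 0.45 ± 0.04 for Sdhc of complex II, 0.37 ± 0.04 for Cox5b of complex IV, 0.37 ± 0.05 for Atp5g3 of the ATP synthase and 0.32 ± 0.04 for Pdha1 (adjusted p = 5.8e-06, 2.7e-05, 9.8e-05 and 7.8e-05).

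Of 3 tested genes of creatine and adenylate turnover 2 were lower in soleus and 0 higher, beside 15.9% lower and 37.4% higher of all tested genes. Ampd1, the muscle AMP deaminase of the purine nucleotide cycle, had 427, 437, 377, 456 and 488 CPM in soleus, against 975, 939, 869, 909.8 and 904 CPM in red gastrocnemius. There was no overlap (log2 difference -1.08 ± 0.06, adjusted p = 2.2e-07). Ak1, the cytosolic adenylate kinase, had 625 to 677 CPM in soleus and 933 to 1048 CPM in red gastrocnemius (log2 difference -0.59 ± 0.04, adjusted p = 3.9e-07). The creatine transporter gene Slc6a8 did not pass with all libraries (log2 difference 0.38, adjusted p = 0.053) and passed without soleus 1 and 2 (0.59, adjusted p = 0.0021).

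Carbonic anhydrases and transporters of acid and lactate included 4 higher and 0 lower of 6 tested, with a median of 0.63, beside 37.4% higher and 15.9% lower of all tested genes. Car3, the abundant carbonic anhydrase of slow fibres, had 2279, 2279, 1959.9, 2170.4 and 2606 CPM in soleus, against 1655, 1662, 1467, 1596 and 1547 CPM in red gastrocnemius. Its groups did not overlap, but the log2 difference was only 0.51 ± 0.07 (adjusted p = 1.1e-04). The EDL libraries held more, 3527 to 5139 CPM. Slc16a1, the lactate transporter MCT1, had 119 to 131 CPM in soleus and 64.0 to 78.2 CPM in red gastrocnemius (log2 difference 0.76 ± 0.05, adjusted p = 8.6e-07). Slc4a3, an anion exchanger, was 15.0, 14.7, 24.4, 27.0 and 28.1 CPM in soleus, against 6.37, 8.48, 7.66, 8.06 and 9.18 CPM in red gastrocnemius. Soleus libraries 1 and 2 were again the lowest of their group (log2 difference 1.31 with them and 1.63 without them). Car2 differed by 0.79 ± 0.08 on the log2 scale (adjusted p = 1.8e-05).

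At the neuromuscular junction Chrna1, the alpha subunit of the acetylcholine receptor, had 51.4, 50.6, 35.6, 39.0 and 50.5 CPM in soleus, against 16.9, 17.1, 15.2, 16.3 and 17.2 CPM in red gastrocnemius. Every soleus library was above (log2 difference 1.39 ± 0.10, adjusted p = 1.2e-06). The delta subunit Chrnd, below the limit of 10 CPM, had 7.51 to 9.43 CPM in soleus and 3.77 to 4.89 CPM in red gastrocnemius. Lrp4, the agrin receptor, was higher with overlapping groups (log2 difference 0.43 ± 0.10, adjusted p = 0.0048). Mstn (chr1:53061640-53068079) encodes myostatin, which restrains muscle growth. It had 5.55, 8.31, 3.11, 7.04 and 9.46 CPM in soleus, against 45.1, 49.0, 41.5, 43.7 and 38.6 CPM in red gastrocnemius. The highest soleus library was well below the lowest red gastrocnemius library, and the log2 difference was -2.60 ± 0.21 (adjusted p = 2.5e-06). In all, 2 of 5 tested genes of this list were higher and 1 lower, near the 37.4% and 15.9% of all tested genes.

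Transcription regulators held 8 higher and 2 lower of 11 tested, with a median of 0.69, beside 37.4% higher and 15.9% lower of all tested genes. Prox1, a homeodomain factor known from slow muscle and heart, had 22.2, 23.6, 32.3, 33.5 and 27.7 CPM in soleus, against 3.65, 4.24, 5.01, 4.50 and 4.64 CPM in red gastrocnemius. Its log2 difference was 2.40 ± 0.12 (adjusted p = 8.0e-08). Fhl2, a LIM-domain cofactor abundant in heart, had 24.2, 33.8, 32.7, 35.3 and 23.3 CPM in soleus, against 4.16, 7.23, 6.63, 6.57 and 6.44 CPM in red gastrocnemius (log2 difference 2.10 ± 0.15, adjusted p = 1.1e-06). Esrrg, a nuclear receptor that drives oxidative metabolism, averaged 197 ± 14.7 CPM in soleus and 77.2 ± 3.99 CPM in red gastrocnemius (SD, n = 5 each; log2 difference 1.34 ± 0.05, adjusted p = 1.8e-08). For these 3 regulators the soleus and red gastrocnemius libraries did not overlap. Prrx1, Nfatc2 and Mef2d were higher by 0.74, 0.69 and 0.25 on the log2 scale (adjusted p = 1.5e-07, 7.1e-04 and 0.004). Prrx1 is also a marker of connective tissue cells, and Nfatc2 belongs to a family that calcineurin activates. Rxrg, the retinoid receptor of fast muscle, was lower (log2 difference -1.08 ± 0.10, adjusted p = 7.0e-06). Tbx15, a factor of glycolytic fibres, did not pass (log2 difference -0.14, adjusted p = 0.069), with 186 to 219.8 CPM in soleus and 209 to 251 CPM in red gastrocnemius. It passed as lower after rescaling (-0.24, adjusted p = 0.016) and without soleus 1 and 2 (-0.18, adjusted p = 0.046), which made the list 8 higher and 3 lower in both cases. Its EDL libraries held 508 to 620.1 CPM.

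The HoxD cluster holds genes that pattern the limb along its axis, and Hoxd8 was lower in soleus. Hoxd8 (chr2:74704615-74707933) had 10.9, 8.08, 8.26, 9.12 and 12.5 CPM in soleus, against 25.8, 32.9, 25.7, 25.4 and 23.9 CPM in red gastrocnemius (log2 difference -1.37 ± 0.12, adjusted p = 5.0e-06). Hoxd9 (chr2:74697727-74700208) had 2.27 to 4.68 CPM in soleus and 7.44 to 12.0 CPM in red gastrocnemius. Hoxd10 (chr2:74691924-74695105) had 0.157 to 0.86 CPM in soleus and 1.53 to 3.07 CPM in red gastrocnemius. The libraries of the muscles did not overlap for any of these 3 genes, of which Hoxd8 alone was above the limit and tested. Hoxd4, the next in level, had 0.119 to 0.516 CPM in soleus and 0.158 to 0.272 CPM in red gastrocnemius, with overlap.

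The remaining genes named by size stood outside these lists. Smox (chr2:131491496-131525922), spermine oxidase of polyamine breakdown, was the gene that fell most, with 39.0, 27.6, 18.2, 32.1 and 46.5 CPM in soleus, against 283, 284, 220.4, 206 and 186 CPM in red gastrocnemius (log2 difference -2.86 ± 0.22, adjusted p = 1.7e-06). Plcd4, a phospholipase C, had 11.2 to 22.8 CPM in soleus and 93.5 to 133 CPM in red gastrocnemius (log2 difference -2.71 ± 0.16, adjusted p = 2.4e-07). Both genes were spread within each muscle by a factor smaller than the gap between muscles. Tmem56, a membrane protein gene, Sort1, whose product sortilin sorts glucose transporter vesicles, Ddit4l, an inhibitor of mTOR signalling, and Osbpl6, a sterol-binding protein gene, were lower, with log2 differences of -2.16, -1.59, -1.35 and -1.35 (adjusted p = 1.6e-07, 7.1e-07, 7.5e-06 and 7.1e-07).

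Among those higher in soleus, Pcp4l1, a small protein related to a calmodulin regulator, had 256 to 365 CPM in soleus and 97.8 to 131 CPM in red gastrocnemius (log2 difference 1.37 ± 0.11, adjusted p = 1.7e-06). Pla2g12a, a secreted phospholipase A2, averaged 299.5 ± 14.1 CPM in soleus and 113 ± 7.91 CPM in red gastrocnemius (SD, n = 5 each; log2 difference 1.40 ± 0.05, adjusted p = 1.3e-08). Smtnl1, a smoothelin-like protein of oxidative fibres, averaged 442 ± 26.4 CPM in soleus and 175 ± 11.0 CPM in red gastrocnemius (log2 difference 1.33 ± 0.05, adjusted p = 1.8e-08). Fam129a, a stress-response gene, Klhl34, a kelch-like gene on the X chromosome, and Maged1, an adaptor protein gene, were higher by 1.56, 1.35 and 1.29 (adjusted p = 1.1e-06, 8.0e-08 and 2.9e-09).

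Genes that respond to handling or dissection were also higher in soleus. All 3 members that were matched by symbol and tested passed as higher, beside 37.4% higher of all tested genes. Atf3 had 18.8, 9.70, 31.9, 15.7 and 14.4 CPM in soleus, against 5.71, 5.64, 5.88, 9.50 and 11.2 CPM in red gastrocnemius, with overlap (log2 difference 1.10 ± 0.28, adjusted p = 0.007). Btg2 had 24.8 to 53.1 CPM in soleus and 13.3 to 20.7 CPM in red gastrocnemius (log2 difference 0.95 ± 0.19, adjusted p = 0.0017), and Ier5 differed by 0.42 ± 0.11 (adjusted p = 0.0076). Their part in the other differences was not tested. In the DIO libraries 0 of the 3 counted genes passed, but their median log2 difference was still 0.55, against 0.95 in lean libraries. Ccn1, listed as Cyr61 and not counted, was higher in lean soleus with overlap (log2 difference 1.05, adjusted p = 0.021). In DIO libraries Ccn1 did not pass, with a log2 difference of 0.84 (adjusted p = 0.13). Not passing in DIO therefore does not show that the difference was absent there.

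Markers of other cell types were measured beside the muscle genes. Of the skeletal muscle markers 3 were higher, 5 lower and 1 did not pass, against 4 higher and 4 lower without soleus 1 and 2. Of all tested genes 37.4% were higher and 15.9% lower. Endothelial markers summed to 229 to 282 CPM in soleus and 188 to 237 CPM in red gastrocnemius, and 0 of 6 tested members passed, against 1 higher without soleus 1 and 2. Fibroblast and matrix markers summed to 495 to 745 CPM in soleus and 381 to 534 CPM in red gastrocnemius, and 3 of 8 tested members were higher: Postn (29.1 to 43.8 CPM in soleus and 8.97 to 11.1 CPM in red gastrocnemius, log2 difference 1.70 ± 0.10), Prrx1 and Fn1 (0.57 ± 0.16). That share is near the 37.4% of all tested genes that were higher, and without soleus 1 and 2 the number was 4. Adipocyte markers summed to 377 to 434 CPM in soleus and 254 to 299.6 CPM in red gastrocnemius, and both tested members, Fabp4 (0.68 ± 0.07) and Acss2 (0.29 ± 0.09), were higher. Fabp4 is also made by endothelial cells. Smooth muscle markers, a list that contains desmin, counted 2 of 3 tested members higher. Nerve markers summed to 15.4 to 91.0 CPM in soleus and 22.7 to 57.4 CPM in red gastrocnemius, and 0 of 1 tested member passed. Tendon markers summed to 72.3 to 152.8 CPM in soleus and 75.9 to 107.6 CPM in red gastrocnemius, with overlap, and the 1 tested member did not pass. The other, Tnmd, was not tested and had 7.64 to 17.7 CPM in soleus and 5.17 to 7.26 CPM in red gastrocnemius, without overlap. Macrophage markers summed to 14.2 to 27.0 CPM in soleus and 9.52 to 20.0 CPM in red gastrocnemius, lymphoid markers to 4.15 to 7.68 CPM in soleus and 3.58 to 7.19 CPM in red gastrocnemius, and the erythroid marker Alas2 was at most 7.48 CPM. The synaptic gene Snap25 had 0.0344 to 0.313 CPM in soleus and 0 to 0.829 CPM in red gastrocnemius. What part these cells had in the other differences was not tested.

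The muscles were compared again in DIO mice, whose libraries took no part in the lean comparison above. Of 1667 genes tested there, 689 (41.3%) passed, 457 higher (27.4%) and 232 lower (13.9%) in soleus, and 59 (3.54%) also differed by at least 1 on the log2 scale, 30 higher (1.8%) and 29 lower (1.74%). After rescaling, the DIO split was 312 higher and 329 lower of 641 calls. Among the 1647 genes tested on both diets, 617 passed on both, which was 70.2% of the lean calls and 90.7% of the DIO calls. All 617 had the same direction on both. Of the 79 genes in this set that passed with a log2 difference of at least 1 in lean mice, 76 also passed in DIO mice. Across the 1647 genes the log2 differences on the diets correlated with r = 0.966, a description over genes that are not independent replicates. Each of the 24 genes named by size passed on both diets, with adjusted p of 0.00058 or less in DIO mice.

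The libraries of 2 of these genes are given for DIO mice. Tnni1 had 1338, 1655, 1606, 1389.7 and 1291 CPM in DIO soleus, against 118, 215, 224, 150.0 and 180.5 CPM in DIO red gastrocnemius (log2 difference 3.06 ± 0.16, adjusted p = 8.9e-07). Smox had 51.9, 24.8, 35.5, 12.1 and 18.5 CPM in DIO soleus, against 171, 105, 100.2, 125 and 127 CPM in DIO red gastrocnemius (log2 difference -2.24 ± 0.32, adjusted p = 3.2e-04). Neither gene's libraries overlapped between muscles. Levels within a muscle were not the same on both diets: Smox had 100.2 to 171 CPM in DIO red gastrocnemius, against 186 to 284 CPM in lean red gastrocnemius, and Tpm3 had 2585 to 3242 CPM in DIO soleus, against 3487 to 4024 CPM in lean soleus, with no overlap for either. The median ratio of the DIO to the lean log2 difference was 0.854 over the 79 genes. These genes were chosen by their lean difference, and that choice alone tends to make the lean value the larger. The ratio therefore cannot show an effect of diet. A direct test of the interaction of muscle and diet in limma over 20 libraries called 0 of 1674 genes, and 79 (4.72%) had an unadjusted p below 0.05. The lowest adjusted p of that test was 0.14, so a change of the muscle difference with diet was not detected for any single gene.

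**Figure D5:**
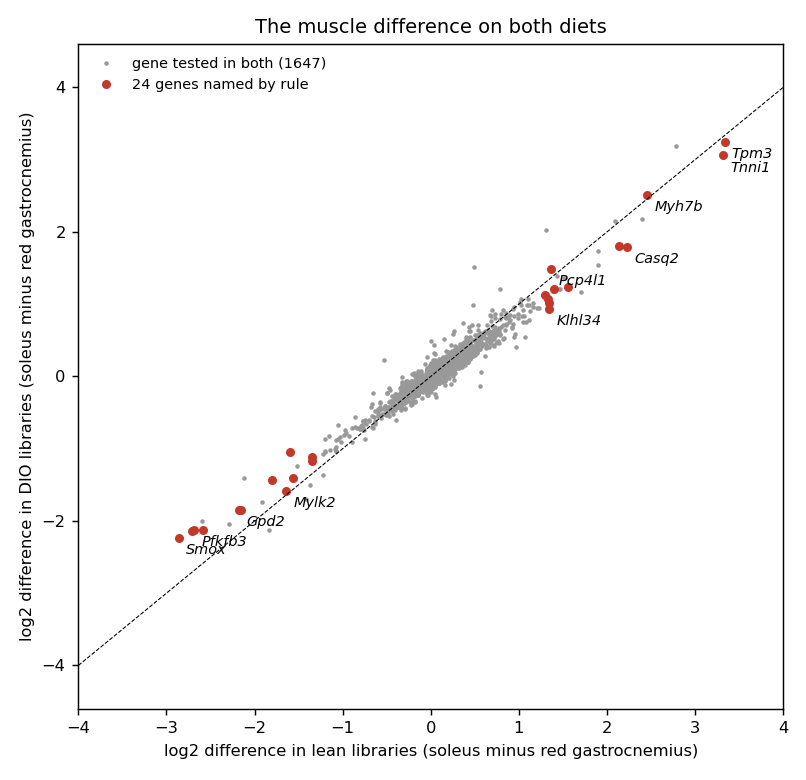
The log2 difference between soleus and red gastrocnemius in lean libraries (x axis) and in DIO libraries (y axis) for 1647 genes, with the 24 genes named by size in red and a dashed line of equality. All 24 red points lay in the same direction on both axes, and most of them lay nearer to 0 in DIO than in lean libraries. The 24 genes were chosen by their lean difference, which alone tends to place them so.

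In the lean EDL, Tnni1 and Tpm3 were lower and Myl1 higher than in red gastrocnemius, while Mylk2 did not pass (log2 difference 0.15 ± 0.14, adjusted p = 0.41) and the untested Mybph was low in EDL. These libraries shared the red gastrocnemius with the comparison above and were fitted with both muscles together, so levels are set side by side and no correlation is given. Their identifiers came from another run of numbers than those of the other muscles, and EDL and such a batch cannot be told apart. EDL lean 1 and 3 were somewhat nearer to each other than to lean 2 and 4, less clearly so than in the soleus division. Chi-square per degree of freedom, a measure of difference beyond counting noise, was 23.1 for 1 and 3 and 26.8 for 2 and 4. For the other pairs of EDL lean libraries it was 30.1 to 49.3. Of 1642 genes 818 (49.8%) passed between EDL and red gastrocnemius, with 184 higher (11.2%) and 634 lower (38.6%) in EDL and a median log2 difference of -0.20. Of these, 97 (5.91%) differed by at least 1 on the log2 scale, 10 higher (0.609%) and 87 lower (5.3%). After rescaling, which removed that shift, the split was 410 higher and 410 lower, and without EDL lean 1 and 3 it was 353 higher and 519 lower of 872.

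Tnni1 had 4.00, 6.83, 1.29 and 27.0 CPM in the EDL libraries, against 137 to 187 CPM in red gastrocnemius (log2 difference -4.49 ± 0.47, adjusted p = 4.2e-06). Tpm3 had 20.7, 50.4, 37.7 and 85.7 CPM in EDL, against 335 to 438 CPM in red gastrocnemius. Myl1 had 10090, 10999, 9869.7 and 10329 CPM in EDL, against 6178 to 7031 CPM in red gastrocnemius (log2 difference 0.67 ± 0.06, adjusted p = 7.2e-07). The order of means was thus soleus, red gastrocnemius and EDL from high to low for the slow genes Tnni1 and Tpm3, and the reverse for Myl1, with no overlap between neighbours. The ratio of Casq2 to Casq1 CPM was 0.00327 to 0.0057 in EDL, below the 0.0246 to 0.0384 of red gastrocnemius. Of the 44 genes higher in soleus by at least 1 on the log2 scale, the red gastrocnemius mean lay between the soleus and EDL means for 42 (95.5%). For the 38 genes lower by that much the number was 26 (68.4%), and over all 1675 tested genes it was 1047 (62.5%). These means were not rescaled. The 44 and 38 genes were chosen by soleus against red gastrocnemius, so their counts turn only on the side of the EDL mean. The downward shift of EDL values given above raises the share of the 44 genes and reduces that of the 38. Smox, Pfkfb3 and Plcd4 were examples of little distance between EDL and red gastrocnemius: Smox had 301, 269, 213 and 302 CPM in EDL, against 186 to 284 CPM in red gastrocnemius. Pfkfb3 had 363 to 480.0 CPM and Plcd4 82.3 to 122 CPM in EDL, within or close to the ranges of 326 to 597 and 93.5 to 133 CPM in red gastrocnemius.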

How the data were processed

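Polyadenylated RNA from frozen tissue was sequenced as paired reads from a stranded kit, per the labels' protocols. The deposited table holds CPM, read counts scaled to the library total, per gene and library. FastQC, STAR, HTSeq and DESeq2 are named in the submitters' processing notes, with no versions; the genome build, annotation and counting settings were not stated there or in the labels. Values were whole multiples of 1 read within 0.001 read for 100% of values, which gave each library's depth. A column that matched no sample (1) and a gene without complete values (1) were left out, and 14 gene identifiers had no annotation. Coordinates and symbols come from GENCODE M21 on GRCm38.

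Lean soleus was compared with lean red gastrocnemius on log2(CPM + 1) by limma 3.58.1 in R 4.3.3, with its trend option, for genes of at least 10 CPM on average, with Benjamini-Hochberg adjustment over all genes tested and a threshold of 0.05. Fold changes on this scale understate those of low genes. DIO libraries, the interaction of muscle and diet, and EDL with both lean muscles were fitted in the same way. Rescaling means median-of-ratios factors over the tested genes. edgeR 4.0.16 and DESeq2 1.42.0 on the recovered reads were alternatives. limma, edgeR and DESeq2 were each tried on simulated data of the lean comparison, which held no split among the soleus libraries. The rescaled, DIO, interaction and EDL fits were not simulated. Genes were named when among the 12 largest differences in each direction with separated groups and at least 50 CPM in the higher muscle, or as members of lists; predicted genes were skipped. The members and lists were chosen with earlier results of these data known. Library numbers are only names and pair nothing. The 20 pairs of lean libraries within a muscle differed beyond counting noise, with chi-square per degree of freedom of 5.61 to 55.0. Some genes are not reported here.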

Additional observations from a re-analysis of the deposited data

Results flagged for a closer look

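In 192 groups of 5 lean libraries (96 genes), 12 single libraries stood far from the other 4 of their muscle. Chance gives about 1 in 20 groups, and the 12 are near that share, so they are listed as values only.

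Among soleus libraries, Fam129a was high in library 3, at 156.6 CPM against 108.7 to 119.4 CPM in the others, and Synpo2, a Z-disc actin-binding protein gene, was high in library 1, at 1122 CPM against 819.9 to 888.5 CPM. Soleus library 5 was low for Pdlim5, at 732 CPM against 843 to 869.8 CPM, and for Prrx1, at 149.2 CPM against 161.4 to 165.6 CPM.

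Among red gastrocnemius libraries, library 1 was high for Tnnc2, at 7479 CPM against 6847 to 7007 CPM, and for Casq1, at 2204 CPM against 1873 to 1967 CPM, and low for Fhl2, at 4.158 CPM against 6.439 to 7.232 CPM. Library 2 was low for Atp1b1, at 308.5 CPM against 357.5 to 377.1 CPM, and high for Hoxd8, at 32.91 CPM against 23.91 to 25.76 CPM. Library 3 was high for Esrrg, at 84.21 CPM against 74.66 to 76.77 CPM, and for Prrx1, at 102.3 CPM against 91.86 to 94.32 CPM. Library 5 was low for Car2, at 10.98 CPM against 13.7 to 14.2 CPM.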

How the results depend on the processing

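Each of the 24 genes named by size kept its direction and passed under every alternative run. Of the genes with values in the text, Ccn1 aside, 88 of 96 kept their direction and their side of the threshold under all of them. Rescaling by median-of-ratios factors gave 410 genes higher in lean soleus, and DESeq2 gave 410 lower. Lean genes with a log2 difference of at least 1 numbered 141 with no filter on low values and 140 with a mean of at least 1 CPM, where more genes are tested; the DIO numbers were 102 and 103. The interaction with diet gave 1 gene with no filter and 1 with array weights. Between EDL and red gastrocnemius 1336 genes passed with no filter and 1317 at 1 CPM, of which 1074 and 1067 were lower in EDL. Rescaling gave 410 higher and 410 lower there, array weights 416 lower, and leaving out EDL lean 1 and 3 together, chosen after seeing the data, 353 higher. EDL differences of at least 1 numbered 62 with a pseudocount of 5, 195 with no filter and 195 at 1 CPM. The cause was not tested, apart from the larger number of genes tested without the filter.

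Leaving out 1 library at a time gave 786 to 877 lean calls, 549 to 626 higher, 237 to 269 lower and 76 to 84 with a log2 of at least 1. In DIO the ranges were 596 to 714, 388 to 482, 194 to 232 and 52 to 66, and for EDL 696 to 875, 146 to 231, 520 to 714 and 76 to 127. The interaction gave 0 to 1 genes.

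Signs turned in few places. Ttn was 0.16 without soleus lean 1 and 2. Pfkfb2 ranged from -0.057 to 0.455 when 1 library was left out, with -0.057 without soleus 4 and -0.054 without soleus 5. The median of the calcium and excitation list was -0.079 after rescaling, -0.0597 in edgeR and -0.078 in DESeq2. Neb lost its call in 13 alternatives, Acss2 after rescaling and in the fit of 20 libraries, and Slc27a4 and Atf3 in the fit of 20 libraries. No paired analysis was possible because the labels give no replicate numbers that tie libraries of different muscles. Genes near 10 CPM rest on the fewest reads of those tested, and small differences there may not have been detectable at this depth.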

Other observations

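Some genes outside the lists differed by at least 1 on the log2 scale and were picked here after their values were seen. In polyamine metabolism, Sms, the synthase of the spermine that Smox oxidises, was lower along with Smox, at 46.9 to 64.1 CPM in soleus and 104 to 122 CPM in red gastrocnemius (log2 difference -1.02 ± 0.08, limma adjusted p = 2.3e-06). Sms has an annotated pseudogene copy. In iron handling, the exporter ferroportin, Slc40a1, had 10.2, 20.1, 19.3, 16.4 and 17.1 CPM in soleus, against 40.9, 47.3, 58.2, 51.6 and 44.5 CPM in red gastrocnemius, while the ferroxidase ceruloplasmin, Cp, had 34.5, 30.3, 30.2, 32.6 and 38.0 CPM in soleus, against 10.2, 10.2, 10.4, 12.6 and 13.9 CPM in red gastrocnemius. The groups did not overlap for either gene, and the log2 differences were -1.51 ± 0.16 and 1.46 ± 0.10 (limma adjusted p = 1.8e-05 and 5.5e-07).

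Potassium channel genes went both ways. The voltage-gated channel gene Kcnc4 had 6.81, 6.97, 5.14, 9.35 and 8.60 CPM in soleus, against 41.0, 42.4, 39.4, 36.8 and 37.9 CPM in red gastrocnemius, and the calcium-activated channel gene Kcnn3 had 17.6, 12.7, 16.4, 20.6 and 13.6 CPM in soleus, against 5.63, 3.37, 4.86, 6.26 and 4.99 CPM in red gastrocnemius. Neither pair overlapped (log2 differences -2.29 ± 0.12 and 1.51 ± 0.16, limma adjusted p = 1.4e-07 and 1.4e-05). The lysine methyltransferase genes Setd7 and Smyd2 were lower in soleus, with log2 differences of -1.14 ± 0.04 and -1.23 ± 0.13 (limma adjusted p = 1.3e-08 and 2.0e-05). G0s2, an inhibitor of the lipase that starts fat breakdown, and Dkk2, a secreted modulator of Wnt signalling, were higher by 1.36 ± 0.19 and 1.31 ± 0.18 (limma adjusted p = 1.6e-04 and 1.1e-04). Rp1, known as a microtubule protein of photoreceptors, had 26.4, 27.6, 32.1, 28.6 and 26.2 CPM in soleus, against 2.49, 2.99, 3.43, 2.89 and 4.54 CPM in red gastrocnemius. Its log2 difference was 2.79 ± 0.12 (limma adjusted p = 2.0e-08). Among tested genes higher in soleus, it was exceeded by Tpm3 and Tnni1. These 10 genes also passed in DIO mice in the same direction, with log2 differences from -2.04 for Kcnc4 to 3.19 for Rp1. Cp and G0s2 overlap another protein-coding gene on the other strand.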
